A study of Mus musculus with 6 samples.

Results

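Expression of genes that copy DNA in S phase was examined in the colon epithelium of mice labelled as lacking the Wnt co-activators Bcl9 and Bcl9l and of wild-type mice. The set was named by gene: 39 genes of origin licensing, the replicative helicase, the polymerases, nucleotide supply and chromatin assembly. Every probe set (a small group of short probes for a transcript) whose array annotation gave exactly 1 gene symbol from that set was taken. This found 83 of 45101 probe sets, for 38 of the 39 genes and out of 18194 genes in all. Chaf1a had no such probe set and is not analysed here. A gene was read from its probe set with the highest mean, and the 45 remaining probe sets were used to see whether it could be read the same way a further time.

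Replication begins in G1, when the origin recognition complex, Cdc6 and Cdt1 load the ring of Mcm2 to Mcm7 onto DNA. At S phase Cdc45 and the GINS complex turn that ring into a moving helicase, and polymerases then copy both strands with the sliding clamp PCNA. Most of these genes are transcribed in a wave driven by E2F factors once cyclin-dependent kinases relieve the retinoblastoma proteins. In the colon they are active in the dividing cells of the lower crypt, which Wnt signalling through beta-catenin maintains, and BCL9 and BCL9L bind beta-catenin.

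The knockout group, labelled vil-Cre-Bcl9-/-/Bcl9l-/-, had 3 arrays from pools of 3, 2 and 2 mice (knockout 1, 2 and 3). The wild-type group had 3 arrays from pools of 3 mice each (wild type 4, 5 and 6). In both groups the animals were aged 12 weeks on a 129SvEv/C57BL/6/DBA/2 mixed background, and the opened colon was incubated in EDTA and DTT. Cre under the villin promoter acts in epithelial cells of the gut and both co-activators were targeted at once. The labels name Cre for the knockouts alone, so Cre itself and the deletions cannot be told apart. An array is 1 pool, so a p-value here rests on how much pools differ.

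The cells were shaken off the muscle, and the labels name no sorting step. All 19 epithelial markers lay above the median gene, and their level (the median over the list of each gene's log2 value minus its 6-array mean) was -0.02 to 0.03 in the 6 arrays. Probe sets of the targeted genes differed by -0.20 to 0.22, the brightest of Bcl9l (0.22) and of Bcl9 (0.11) reading higher in the knockouts, and since no source used here places them inside or outside the deleted parts, they check nothing. Wild type 6 stood apart, with 16 B and plasma cell markers at a level of 2.53. The remaining arrays had -0.67 to -0.03, and 3 of the 16 markers lay above the median gene. In that array 9 germinal centre B cell markers stood at 0.76 and 15 T cell markers at 0.70, against at most -0.03 and -0.05 elsewhere. Markers of macrophages (10 genes) stood at 0.82 and of fibroblasts (12 genes) at 0.66 there, against at most 0.05 and -0.05 elsewhere. Wild type 6 was not the only array raised for macrophage markers when their linear values were summed. The log2 of that sum was 11.68 in wild type 6, 10.95 in knockout 1 and 9.33 to 9.91 in the remaining arrays.

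To show what the set shares in its regulatory sequence, RefSeq promoters (assembly GRCm38.p6, 250 bases before to 50 after the gene's start) were read for 32 of the 39 genes, 37 windows in all. An E2F-type motif, taken as TTTGGCGC, TTTCCCGC, TTTGCCGC or TTTCGCGC on either strand, was in 12 of these 37 windows (32.4%). Among all 32851 windows of the same length it was in 744 (2.26%). These letters can overlap each other on opposite strands, as they do in Mcm5 and Mcm6. The 12 genes were Mcm3, Mcm5, Mcm6, Mcm7, Orc1, Cdc6, Cdt1, Pola1, Pold1, Rfc3, Lig1 and Uhrf1. The same letters were in 26.4% of the windows of other replication genes, 26.5% of those of G1/S control genes and 1 of 24 (4.17%) of those of mitosis genes. CCAAT was in 21 of the 37 (56.8%), against 37.4% of all windows. It was in 50.9% of the windows of other replication genes and 38.2% of those of G1/S control genes. In mitosis genes it was commoner (75%), so it was not particular to this set. No window was matched for Mcm4, Gins1, Gins2, Prim2, Pole, Rfc2 and Ccne2. The letters CTTTGAT or CTTTGAA, which TCF factors can bind, were in 1 member window (2.7%), that of Fen1, against 8.65% of all windows. They were in 9.43% of the windows of other replication genes, 2.94% of those of G1/S control genes and 16.7% of those of mitosis genes. Base composition differs too, at a mean GC of 59.7% in the member windows and 53.8% in all. Windows of 4 subunits of the MCM ring are printed because each of these 4 genes had its lowest value in knockout 1, and that of Mcm10 because its probe sets had the smallest p-values. Capitals mark the E2F-type motif, and each runs 5′ to 3′ on the gene's strand.
Mcm3 (chr1:20820263-20820562, minus strand): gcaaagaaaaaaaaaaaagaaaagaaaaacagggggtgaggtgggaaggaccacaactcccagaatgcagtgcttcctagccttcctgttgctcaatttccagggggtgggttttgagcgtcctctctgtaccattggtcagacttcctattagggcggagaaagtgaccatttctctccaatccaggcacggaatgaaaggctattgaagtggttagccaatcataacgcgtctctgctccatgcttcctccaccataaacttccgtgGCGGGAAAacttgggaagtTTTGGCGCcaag
Mcm5 (chr8:75109259-75109558, plus strand): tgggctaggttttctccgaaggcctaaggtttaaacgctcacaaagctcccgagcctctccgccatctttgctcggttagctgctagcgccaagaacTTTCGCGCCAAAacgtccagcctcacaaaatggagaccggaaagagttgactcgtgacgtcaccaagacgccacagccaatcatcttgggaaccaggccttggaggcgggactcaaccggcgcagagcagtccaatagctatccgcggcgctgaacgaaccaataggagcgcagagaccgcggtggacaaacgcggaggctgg
Mcm6 (chr1:128359656-128359955, minus strand): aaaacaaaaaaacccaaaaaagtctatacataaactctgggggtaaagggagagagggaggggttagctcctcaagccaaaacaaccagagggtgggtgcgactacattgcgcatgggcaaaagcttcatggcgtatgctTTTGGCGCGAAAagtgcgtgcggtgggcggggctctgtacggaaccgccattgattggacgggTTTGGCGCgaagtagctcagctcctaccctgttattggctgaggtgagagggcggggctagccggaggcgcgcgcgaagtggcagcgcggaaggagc
Mcm7 (chr5:138171834-138172133, minus strand): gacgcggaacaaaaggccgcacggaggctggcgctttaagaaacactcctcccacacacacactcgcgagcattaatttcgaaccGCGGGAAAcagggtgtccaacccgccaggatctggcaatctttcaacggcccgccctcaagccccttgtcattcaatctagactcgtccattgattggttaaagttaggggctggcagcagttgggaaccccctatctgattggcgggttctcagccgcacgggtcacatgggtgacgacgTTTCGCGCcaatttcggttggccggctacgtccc
Mcm10 (chr2:5012742-5013041, minus strand): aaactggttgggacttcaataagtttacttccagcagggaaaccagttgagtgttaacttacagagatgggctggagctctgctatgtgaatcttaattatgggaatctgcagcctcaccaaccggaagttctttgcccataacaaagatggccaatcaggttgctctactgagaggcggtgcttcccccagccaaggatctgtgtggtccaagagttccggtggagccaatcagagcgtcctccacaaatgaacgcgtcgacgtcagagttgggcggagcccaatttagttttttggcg
In Mcm5 and Mcm6 a pair of motifs overlaps head to head, beginning 153 and 149 bases before the start in Mcm5 and 110 and 106 bases before it in Mcm6. Mcm6 has a further match 47 bases before the start, and in Mcm3 both lie after the start, at 19 and 38 bases. Not every window of the ring genes holds a match. A further Mcm7 window (chr5:138171217-138171516, not printed) has none, and neither has the Mcm2 window. The Mcm10 window holds none of these motifs in full, which says only that they are not in these bases. That window ends in TTTGGCG, which is TTTGGCGC without its last letter, and the next base was not read. A match is a description of letters, not a measured binding site.

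No replication gene differed detectably between the knockout and wild-type arrays. None of the 38 genes passed the test (limma adjusted p under 0.05, Benjamini-Hochberg over all 18194 genes), and neither did any other gene (0.00% called). None of the 38 had an unadjusted p under 0.05, against 4.71% of all genes. That count also depended on single arrays. Without knockout 1 it was 3 of 38 (Cdt1, Mcm10 and Rrm2), against 661 of 18194 genes, and without knockout 3 it was 2 (Cdc6 and Rfc2), against 662. The median knockout minus wild type difference was -0.06 on the log2 scale, beside 0.01 over all genes. Of the 38 differences 13 lay above 0, or 34.2%, where 52.2% of all genes did, and this share was not tested. It depended on single arrays: 8 lay above 0 without knockout 3, 8 without wild type 6, 19 without knockout 2 and 20 without wild type 4. The median itself ran from -0.11 without wild type 6 to less than 0.01 without wild type 4.

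The precision of these readings can be stated gene by gene. For 25 of the 38 genes the 95% interval lay within a 1.5-fold change either way, and for 36 within a 2-fold change. The genes whose intervals reached past 2-fold were Rfc4 and Pold1. Across all genes 65.6% and 91.1% of intervals lay within these bounds. The spread among arrays of the same genotype was a little wider than usual, with a median SD of 0.22 for the members and 0.19 for all genes. It was narrowest for Slbp (0.06) and Pcna (0.08) and widest for Rfc4 (0.61) and Pold1 (0.60). In the 6 arrays 33 of the 38 genes had a mean above that of the median gene.

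**Figure D1:**
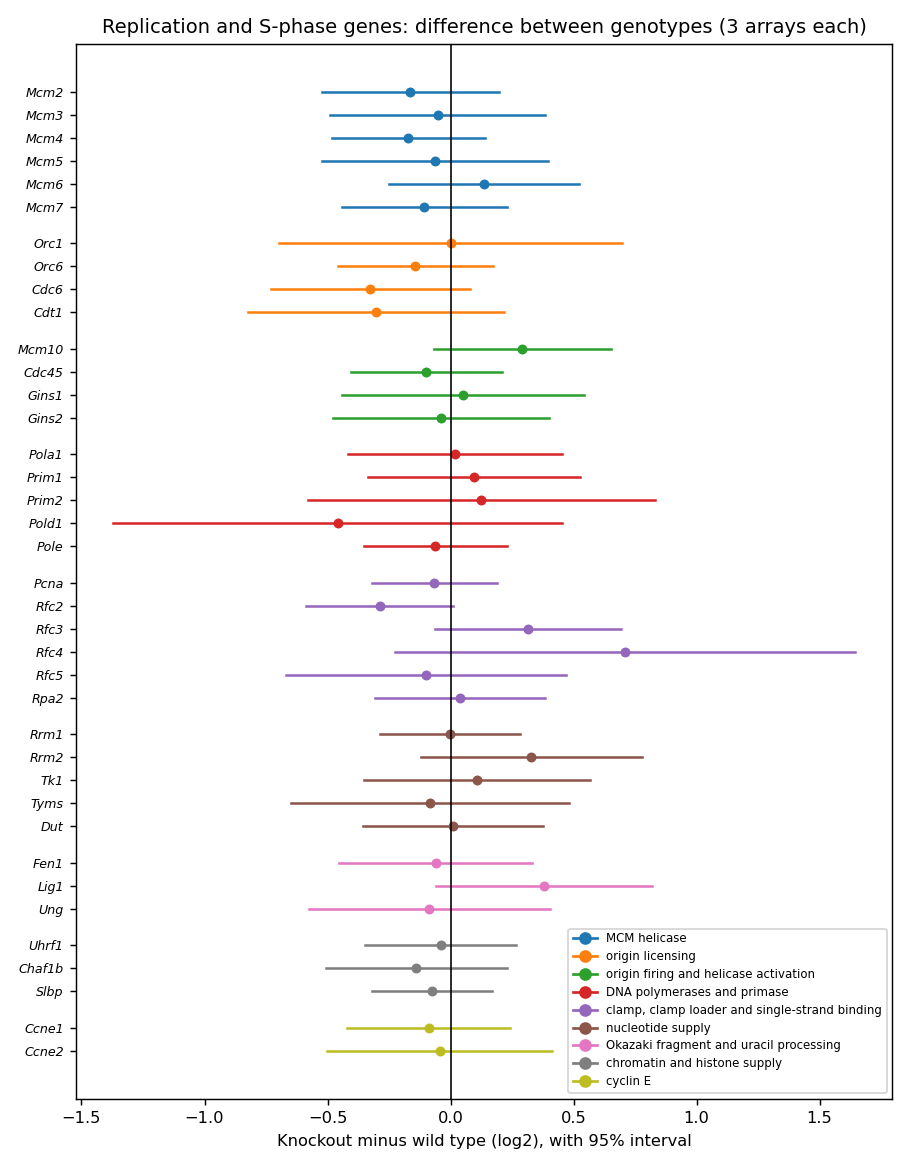
Knockout minus wild type difference (log2, x axis) of each of the 38 genes with limma's 95% interval, 3 arrays per genotype, in order of role and coloured by it. Every interval crosses 0, and those of Rfc4 and Pold1 are the widest.

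Arrays of the same genotype differed by more than the genotypes did. The level of the set was -0.05, -0.12 and 0.09 in knockout 1, 2 and 3 and 0.08, 0.05 and -0.13 in wild type 4, 5 and 6, so each genotype held both a high and a low pool. Over the 3 knockout arrays this level averaged -0.03 ± 0.11 (SD, n = 3), and over the 3 wild-type arrays it averaged less than 0.01 in size, with an SD of 0.11. Knockout 3 and wild type 4 each held the highest value of 11 of the 38 genes (28.9%), where 15.3% and 16.0% of all genes had their highest value. Knockout 2 held the lowest value of 12 genes (31.6%) and the highest of 0, where 17.3% of all genes were lowest and 13.0% highest. Wild type 6 held the lowest value of 12 genes (31.6%), close to the 30.8% of all genes that were lowest in it. The B and plasma cell level was highest in that array, and its part in these values was not tested.

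**Figure D2:**
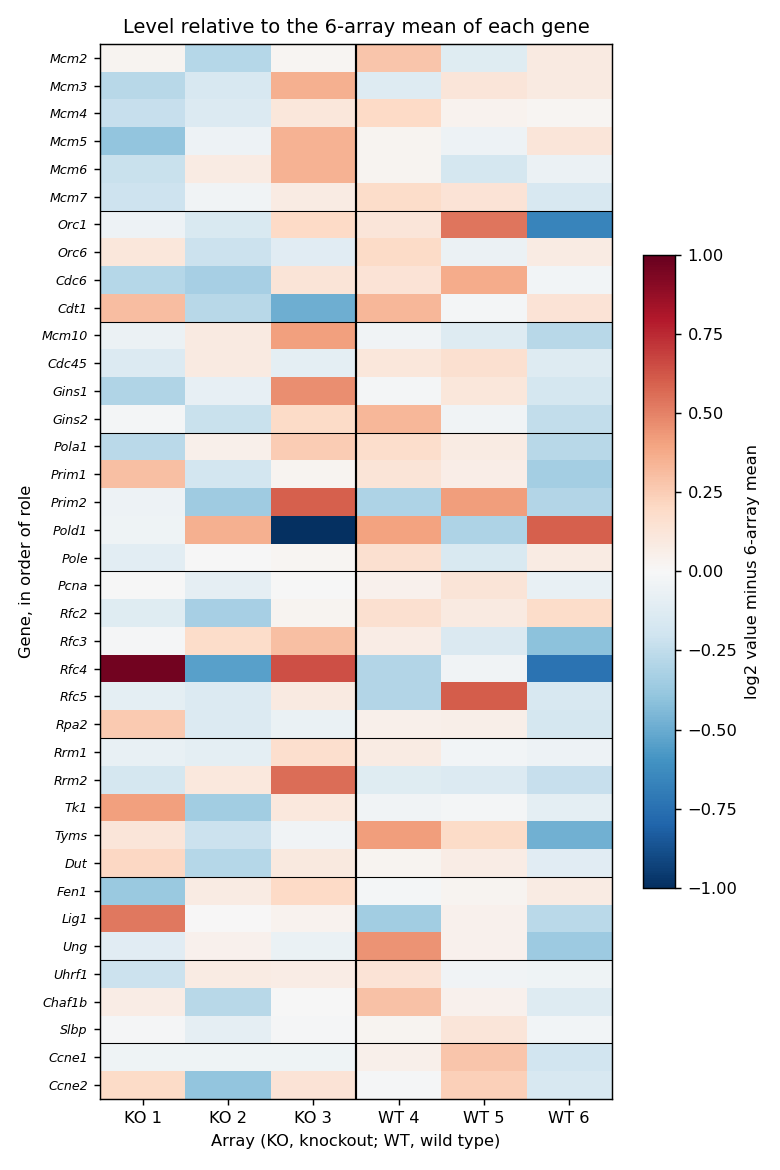
Each gene's log2 value minus its own 6-array mean (colour, red above and blue below, from -1 to 1) in the 3 knockout arrays (KO) and 3 wild-type arrays (WT), with lines between roles. High and low arrays occur within both genotypes, such as knockout 3, high for Mcm3, Mcm5 and Mcm6, and wild type 6, low for Orc1, Tyms and Rfc4.

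The subunits of the helicase ring, Mcm2 to Mcm7, lay slightly below wild type in 5 of 6 cases, with differences from -0.17 for Mcm4 to 0.14 for Mcm6. Mcm2 read 7.52, 7.21 and 7.51 in knockout 1, 2 and 3 and 7.78, 7.38 and 7.58 in wild type 4, 5 and 6, a difference of -0.16 (SE 0.15, limma adjusted p = 0.971). Mcm5 read 9.61, 9.95 and 10.35 in the knockouts and 10.03, 9.96 and 10.12 in wild type, a difference of -0.06 (SE 0.19). The knockout pools of Mcm5 thus spanned a wider range than the wild-type pools and enclosed all 3 of them. Without knockout 1 the Mcm5 difference was 0.12.

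Low values of the ring subunits fell mostly in knockout 1, and their high values were split between the genotypes. Knockout 1 held the lowest value of 5 of the 6 genes (Mcm3, Mcm4, Mcm5, Mcm6 and Mcm7), where 15.8% of all genes were lowest in it. Knockout 3 held the highest value of Mcm3, Mcm5 and Mcm6, and wild type 4 that of Mcm2, Mcm4 and Mcm7. Of all genes 15.3% and 16.0% were highest in these 2 arrays. The level of the 6 genes was -0.23 in knockout 1, -0.09 in knockout 2 and 0.23 in knockout 3, and -0.01 to 0.11 in wild type. Over all 19 probe sets of these genes knockout 1 was lowest in 10, knockout 2 in 5 and wild type 6 in 4. The 13 probe sets of these genes other than the brightest differed between genotypes by -0.20 to 0.37, both ends being Mcm5. The brightest probe sets of Mcm3, Mcm4, Mcm5, Mcm6 and Mcm7 all end in _x_at or _s_at, which marks probes that can match several transcripts. Knockout 1 was also lowest in a probe set without that ending for Mcm3, Mcm5 and Mcm6, but not for Mcm4 and Mcm7.

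The 4 licensing genes of the set, which act before the ring is loaded, all stood at or below 0 in the knockouts, with a median of -0.22. Outside the set, licensing genes were listed together with firing genes. Of these 18 other genes of licensing and firing, 13 lay above 0 (72.2%, against 52.2% of all genes), with a median of 0.09. The origin recognition genes among them lay on both sides of 0, with Orc3 at -0.15, Orc5 at -0.21, Orc2 at 0.09 and Orc4 at 0.08. Cdc6, the loader ATPase, read 6.91, 6.86 and 7.32 in the knockouts and 7.33, 7.56 and 7.17 in wild type. Its difference was -0.33 (SE 0.17, 95% interval -0.73 to 0.08, limma adjusted p = 0.953), and the groups overlapped only through knockout 3 and wild type 6. Without knockout 3 it was -0.47, and without wild type 5 it was -0.22.

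Cdt1, which brings the ring to the origin, read 9.71, 9.12 and 8.91 in the knockouts and 9.73, 9.38 and 9.54 in wild type (-0.30, SE 0.22). Without knockout 1 the difference was -0.53 (limma unadjusted p = 0.0155, adjusted p = 1.00), and without knockout 3 it was -0.13. Its probe sets did not give the same direction. Another bright one differed by 0.25, and the third, at the 9.57th percentile of all probe sets, by -0.27 with the knockouts all lower (2.60 to 2.76 against 2.84 to 3.09). Whether so dim a reading lies above background was not tested. Of the origin recognition subunits, Orc6 differed by -0.14 and Orc1 by less than 0.01, with Orc1 ranging over 1.19 among arrays, from 5.22 in wild type 6 to 6.41 in wild type 5.

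Among the genes that fire origins, Mcm10, a scaffold that helps the helicase start and binds polymerase alpha, read higher in the knockouts in all 3 of its probe sets. The brightest read 6.96, 7.11 and 7.43 in the knockouts and 6.99, 6.90 and 6.75 in wild type, a difference of 0.29 (SE 0.15, limma adjusted p = 0.953), with knockout 1 inside the wild-type range.

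The next Mcm10 probe set read 6.83, 6.58 and 6.93 against 6.47, 6.35 and 5.82, a difference of 0.57 (95% interval 0.09 to 1.05, limma unadjusted p = 0.0254). The last read 6.69, 6.59 and 6.53 against 6.34, 6.10 and 6.03, a difference of 0.45 (95% interval 0.14 to 0.75, limma unadjusted p = 0.0107). In both of these the genotypes did not overlap. They were the 2 of 83 member probe sets (2.41%) with an unadjusted p under 0.05, both higher, where 4.16% of all probe sets had one and 2.29% had one on the higher side. Neither passed over all 45101 (limma adjusted p = 0.991, with 0.00% of probe sets called). Each of the 3 is a reading of the same RNA and not a further replicate. With the mean of its 3 probe sets Mcm10 differed by 0.44 (limma unadjusted p = 0.0134), and without knockout 3 its brightest probe set differed by 0.16.

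The other firing factors lay near 0. Cdc45, the helicase partner, read 6.18, 6.42 and 6.22 in the knockouts and 6.44, 6.49 and 6.20 in wild type (-0.10, SE 0.13), and its other probe set differed by 0.16. Without wild type 6 it differed by -0.19. The GINS subunits Gins1 and Gins2 differed by 0.05 and -0.04.

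The polymerases and primase lay on both sides of 0, with a median of 0.02. Pola1, the catalytic subunit of polymerase alpha, read 6.57, 6.89 and 7.09 in the knockouts and 7.01, 6.92 and 6.56 in wild type (0.02, SE 0.18). Pole, the leading-strand polymerase, read 5.81, 5.91 and 5.94 against 6.08, 5.77 and 6.00 (-0.06, SE 0.12). The primase subunits Prim1 and Prim2 differed by 0.10 and 0.13, the latter with values from 6.54 to 7.49.

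Pold1, the lagging-strand polymerase, had the lowest difference of the set, -0.46 (SE 0.38, limma adjusted p = 0.971). It read 9.07, 9.46 and 8.11 in the knockouts and 9.51, 8.80 and 9.71 in wild type, so that knockout 3 alone lay below every wild-type pool. Without knockout 3 the difference was -0.07, without knockout 2 it was -0.75 and without wild type 6 it was -0.27. The other Pold1 probe set read 6.84, 6.13 and 5.97 against 6.55, 6.78 and 6.18, a difference of -0.19, and knockout 3 was lowest in it as well.

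The clamp PCNA was among the steadiest genes, at 11.41, 11.33 and 11.41 in the knockouts and 11.45, 11.54 and 11.34 in wild type (-0.07, 95% interval -0.32 to 0.19). Without wild type 6 it differed by -0.12. Its loader, replication factor C, showed no common direction. Rfc4 had the highest difference of the set, 0.71 (SE 0.39, limma adjusted p = 0.953), Rfc3 differed by 0.32, Rfc5 by -0.10 and Rfc2 by -0.29. Rpa2, of the complex that coats single-stranded DNA, differed by 0.04.

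Rfc4 read 9.59, 8.09 and 9.27 in the knockouts and 8.33, 8.60 and 7.89 in wild type, with knockout 1 and 3 above and knockout 2 within the wild-type range. Without knockout 2 the difference was 1.16 (limma adjusted p = 0.916), and without knockout 1 it was 0.41. Its other probe set read 7.67, 7.50 and 7.56 against 7.83, 7.84 and 6.89, a difference of 0.05. The high values of knockout 1 and 3 were therefore not seen in it.

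Rfc2 was the 1 of the 38 genes (2.63%) whose genotypes did not overlap, against 10.3% of all genes and 4.83% with the knockouts lower. It read 9.50, 9.29 and 9.65 in the knockouts and 9.78, 9.72 and 9.80 in wild type (-0.29, 95% interval -0.59 to 0.01, limma adjusted p = 0.953). Another probe set read 7.75, 7.61 and 7.93 against 8.003, 8.076 and 7.976 (-0.25), also without overlap. The names of both end in _x_at, which marks probes that can bind other transcripts. The probe set without that mark read 8.29, 8.07 and 8.17 against 8.05, 8.27 and 8.16, a difference of 0.02 (95% interval -0.27 to 0.30). Rfc3 read 7.67, 7.87 and 7.99 in the knockouts and 7.76, 7.54 and 7.28 in wild type (SE 0.16), and its other probe set differed by 0.05. Without wild type 6 Rfc3 differed by 0.19.

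**Figure D3:**
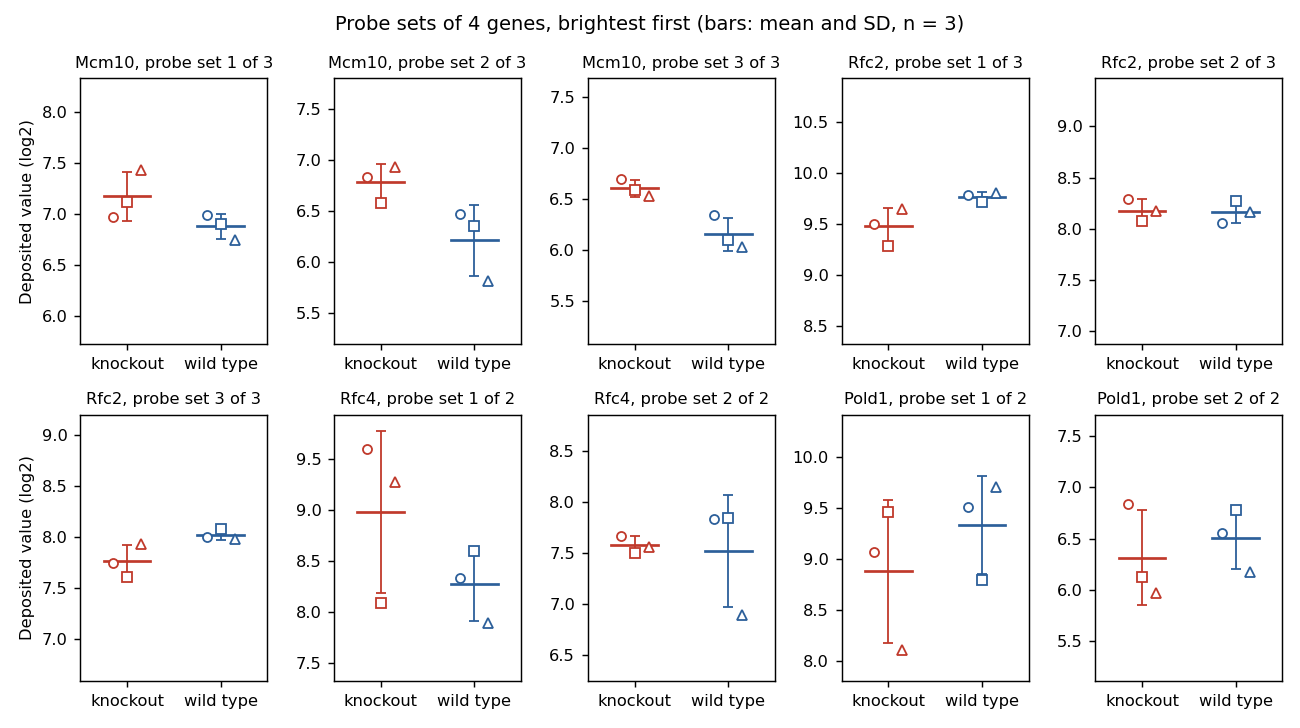
Deposited log2 value (y axis, the same span in every panel) of each probe set of Mcm10, Rfc2, Rfc4 and Pold1 in the knockout (red) and wild-type (blue) arrays, with circles, squares and triangles for replicates 1, 2, 3 and 4, 5, 6 and bars for the mean and SD (n = 3). All Mcm10 probe sets have a higher knockout mean, while probe sets of Rfc2 and Rfc4 differ in what they show.

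Nucleotide supply had a median difference of 0.01. Rrm2, the regulated subunit of ribonucleotide reductase, read 9.83, 10.11 and 10.56 in the knockouts and 9.88, 9.86 and 9.77 in wild type, a difference of 0.33 (SE 0.19, limma adjusted p = 0.953). The height came mainly from knockout 3, without which it was 0.13, while without knockout 1 it was 0.50. Its other probe sets differed by 0.13 and 0.18. Its partner Rrm1 differed by less than 0.01 (95% interval -0.29 to 0.28), and Dut, which removes dUTP, by 0.01, with 0.57 in a dimmer probe set.

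Tk1, the thymidine salvage kinase of S phase, read 8.43, 7.68 and 8.13 in the knockouts and 7.985, 8.003 and 7.924 in wild type (0.11, SE 0.19). Its knockout pools lay on both sides of the narrow wild-type range. Tyms, which makes thymidylate, read 6.63, 6.30 and 6.48 against 6.93, 6.70 and 6.03 (-0.08, SE 0.24, and -0.35 without wild type 6), and its other probe sets were dim and differed by -0.24 to -0.07. A further probe set annotated to both Tyms and a pseudogene was left out.

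Of the genes that process Okazaki fragments and uracil, Lig1, the ligase that seals fragments, read 10.36, 9.83 and 9.87 in the knockouts and 9.48, 9.87 and 9.56 in wild type. This was a difference of 0.38 (SE 0.19, limma adjusted p = 0.953), and wild type 5 overlapped the knockouts. Without wild type 5 it was 0.50, and without knockout 1 it was 0.21. Fen1, the flap nuclease, differed by -0.06, with 0.34 in its other probe set, and the uracil glycosylase Ung by -0.09.

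Genes of chromatin behind the fork were steady. Uhrf1, which recruits the maintenance methyltransferase to new DNA, read 9.56, 9.86 and 9.85 in the knockouts and 9.92, 9.74 and 9.74 in wild type (-0.04, SE 0.13), with -0.38 in its other probe set. Slbp, which binds histone mRNA, read 10.47, 10.39 and 10.47 against 10.51, 10.60 and 10.45 (-0.08, 95% interval -0.32 to 0.17). Chaf1b, of the assembly factor CAF-1, differed by -0.14.

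The E cyclins, which drive entry into S phase, lay close to 0. Ccne1 read 7.29, 7.29 and 7.28 in the knockouts and 7.38, 7.61 and 7.14 in wild type (-0.09, SE 0.14), and its other probe set differed by 0.02. Ccne2 read 6.04, 5.46 and 5.99 against 5.84, 6.09 and 5.70 (-0.04, SE 0.19). All 3 knockout values of Ccne1 lay inside its wild-type range, and those of Ccne2 overlapped it.

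Probe sets of the same gene often did not give the same direction. For 29 of the 38 genes there were further probe sets, 45 in all, and 31 of these shared the sign of the brightest one. In 16 of the 29 genes every probe set had the same sign. Of the 6 genes with the highest or lowest difference (Rfc4, Lig1, Rrm2, Pold1, Cdc6 and Cdt1), Lig1 and Cdc6 have 1 probe set, and of the others Cdt1 changed sign. Brightest probe sets ending in _x_at or _s_at, whose probes can match several transcripts, stood for 11 of the 38 genes. They were Mcm3, Mcm4, Mcm5, Mcm6, Mcm7, Pold1, Rfc2, Rfc4, Rrm2, Fen1 and Ccne1. Over all 83 probe sets the median difference was -0.02, with 36 above 0, or 43.4%, where 50.4% of all probe sets were. The genotypes did not overlap in 5 of the 83 (6.02%), against 9.71% of all probe sets. The knockouts were higher in 2 of these, both of Mcm10 (4.92% of all probe sets), and lower in 3, from Rfc2 and Cdt1 (4.78% of all).

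**Figure D4:**
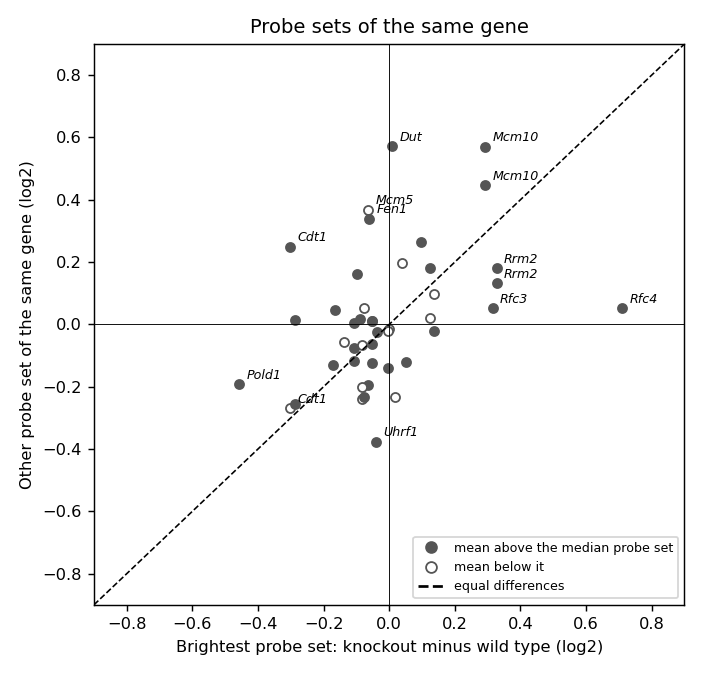
Knockout minus wild type difference (log2) of each gene's brightest probe set (x axis) against that of its 45 other probe sets (y axis), filled where the mean lies above that of the median probe set and open where below. Mcm10 lies high on both axes, Rfc4 on the x axis alone and Dut on the y axis alone.

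Of 55 other measured genes of the replication machinery 31 lay above 0 (56.4%, against 52.2% of all genes), with a median of 0.03. None of the 55 passed the limma test over all genes. Unadjusted p-values under 0.05 were found for 4 of them (7.27%, against 4.71% of all genes), of which 3 were higher. Mcm9, a helicase relative that acts in repair, differed by 0.34 (SE 0.12), Wdhd1, which ties polymerase alpha to the helicase, by 0.34 (SE 0.14) and Shmt1, a folate enzyme, by 0.78 (SE 0.32). Without wild type 6 Shmt1 differed by 1.13 (limma adjusted p = 0.468). Rrm2b, the p53-induced reductase subunit, differed by -0.31 (SE 0.11), with knockouts at 7.34 to 7.38 and wild type at 7.53 to 7.78. The smallest adjusted p in this list was 0.953, and with the mean of its 4 probe sets Mcm9 differed by less than 0.01.

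Of 31 genes that control the G1/S transition, 11 lay above 0 (35.5%, against 52.2% of all genes), with a median of -0.02. The 13 E2F and pocket protein genes had a median of less than 0.01 in size. An unadjusted p under 0.05 was found for 0 of them and for 1 of all 31 (3.23%), against 4.71% of all genes. The genes with the smallest p were Cdkn1c, the CDK inhibitor p57, at -0.79 (SE 0.30, limma adjusted p = 0.953), Cdk6 at -0.37 (SE 0.19) and Ccnd1, cyclin D1, at 0.29 (SE 0.16). The size of each depended on single arrays, while its sign did not. Cdkn1c was -0.46 without knockout 2 and -1.03 without knockout 1. Cdk6 was -0.58 without knockout 1 and -0.21 without knockout 3, and Ccnd1 was 0.13 without wild type 6. Cdkn1c read 6.74, 5.61 and 6.48 in the knockouts and 7.06, 7.33 and 6.82 in wild type, without overlap. It was the 1 of the 31 genes (3.23%) without overlap, against 10.3% of all genes.

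Mitosis genes are expressed after S phase. Of 27 measured, 26 lay above 0 (96.3%, against 52.2% of all genes), with a median of 0.31, and Ndc80 lay below. The list was chosen with earlier results of these data known, and this count was not tested. None of the 27 passed (limma, smallest adjusted p = 0.953). An unadjusted p under 0.05 was found for 3 (11.1%, against 4.71% of all genes). These were the kinetochore genes Cenpf at 0.53 (SE 0.15) and Nuf2 at 0.56 (SE 0.20), and Birc5, survivin, at 0.50 (SE 0.21). The level of this list was 0.08, -0.16 and 0.52 in knockout 1, 2 and 3 and -0.18, -0.17 and -0.11 in wild type 4, 5 and 6, so knockout 2 lay inside the wild-type range. Knockout 3 was highest for both lists and knockout 2 was the lowest knockout for both. Without knockout 3 the mitosis median was 0.13, with 24 of 27 above 0. Whether the lists differ from each other was not tested. In bulk RNA a change in the number of cells in a phase cannot be told apart from a change in RNA per cell.

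**Figure D5:**
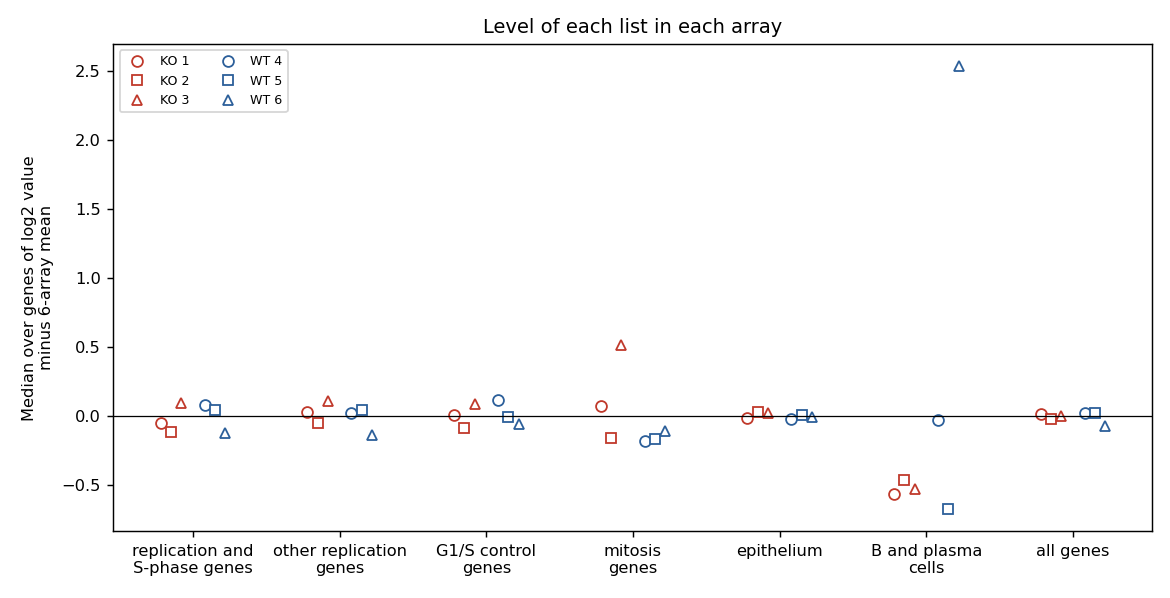
Level of each gene list in each array (y axis, median over genes of the log2 value minus the 6-array mean), with knockouts in red and wild type in blue. Replication lists, G1/S genes and epithelial genes overlap between genotypes, the mitosis list is highest in knockout 3 (0.52), and the B and plasma cell list is highest in wild type 6 (2.53).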

How the data were processed

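RNA pooled from several mice was amplified and read on Affymetrix mouse genome arrays, 1 array a pool, per the labels' protocols. Values were used as the authors deposited them, on a log2 scale. The submitters' processing notes name RMA and no version. Detection calls and scan times were not used here. With 3 arrays a group, the number of arrays limits precision.

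The platform annotation gave 34958 of 45101 probe sets 1 symbol, 932 several and 9211 none. The brightest probe set (highest mean over 6 arrays) stood for a gene. Genotypes were compared by limma 3.58.1 (R 4.3.3), two-sided and without covariates. P-values were adjusted by Benjamini-Hochberg over every gene, or every probe set where those were fitted, at a threshold of 0.05. In 20 simulated data sets of this comparison, with 200 of 18194 genes altered, limma found 7.2% of genes altered 1.5-fold, 64.1% altered 2-fold and 96.6% altered 4-fold. Their noise was normal and independent between genes and arrays, at limma's moderated variances, and the altered genes were drawn from all genes. Whether these rates hold for the real arrays, or for the members with their wider spread, was not tested.

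Per-array values are given for 18 genes set by role, for members with an unadjusted p under 0.05 or no overlap, and for the 3 highest and 3 lowest differences. From the other lists, genes with an unadjusted p under 0.05 are named, or else the 3 with the smallest p. Members and lists were chosen with earlier results of these data known. Alternatives covered normalization, brightness, probe set choice, the variance model, array weights and each array left out.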

Additional observations from a re-analysis of the deposited data

How the results depend on the processing

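With arrays left out in turn, 0 to 3 of all genes passed (limma), the 3 without wild type 6, and 0 of the 38 members passed in each case. The number of members above 0 ran from 8 to 20, and it was 9 after cyclic loess. Among 248 refitted differences of the 21 genes given by array, 228 kept their sign and 20 did not, with 0 past the threshold. 11 of the 21 genes kept their sign throughout. With the mean of all probe sets the difference was 0.036 for Mcm5, 0.032 for Cdc45 and -0.11 for Pola1. With array weights it was 0.034 for Mcm5 and -0.00076 for Pola1, and with cyclic loess -0.038 for Pola1. Without _x_at and _s_at probe sets it was 0.015 for Rfc2 and 0.017 for Ccne1. Leaving arrays out gave -0.25 to 0.12 for Mcm5, -0.12 to 0.16 for Pola1, -0.15 to 0.0029 for Pole and -0.070 to 0.31 for Tk1. It gave -0.35 to 0.10 for Tyms, -0.092 to 0.058 for Uhrf1, -0.21 to 0.026 for Ccne1 and -0.15 to 0.14 for Ccne2. The cause was not tested. The labels give no pairing of knockout and wild-type pools, so no paired analysis was made.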
